A study of Mus musculus with 5 samples.

Results

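The 10 genes described here are growth factors and growth factor receptors with known roles in retinal glia: the ligand genes *Hbegf*, *Fgf2*, *Vegfa*, *Ptn* and *Cntf* and the receptor genes *Egfr*, *Fgfr1*, *Fgfr2*, *Fgfr3* and *Kdr*. They were chosen by symbol, with no measured value in the rule, but with earlier results of these data known. All 10 were found among the 33696 mouse genes listed in each library. Cells were sorted for tdTomato from adult mouse retinas. The genes were counted in Müller glia (MG), the radial glia of the retina, and in the other cell types of the sorted libraries.

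All libraries came from *Glast-CreERT2; Rosa26-Ai65* mice on the C57BL/6J background, 12 to 20 weeks old, with males and females pooled. They were taken 56 days after an eye injection of a ShH10 AAV with a GFAP promoter that carried either *mKate2* (the control, 16 pooled retinas) or *Yap5SA* (an active form of YAP, 21 pooled retinas). The Cre line had been activated with tamoxifen, and the AAVs also carried FlpO. By the study's design tdTomato marked glia that had both recombinases, and their progeny. The paper reports that the active YAP protein was lost by the day of sampling, and that labeled dividing cells had left the cell cycle by then. The comparison between AAVs is thus of cells taken after that loss. The control AAV was injected at a higher titer than the other AAV, and the part of titer in any difference was not tested. As limits of this model, each group is a pool of retinas, and the promoters that drive Cre and the AAV are themselves glial. *Yap5SA* AAV replicate 2 shared 1361 barcodes with *Yap5SA* AAV replicate 1, which is 99.8% of the smaller library, and their counts differed by less than sampling noise, so replicate 2 was left out. That leaves 4 libraries, 2 for each AAV, and values "in library order" below run from the control (replicate 1, then 2) to *Yap5SA* AAV (replicate 1, then 3). Nothing in the labels says that these libraries were separate animals, so p-values between AAVs measure the spread between libraries only. In fits with the library as a term, p-values measure how alike a difference within libraries was from library to library.

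Growth factor signaling sets much of what MG do in an injured retina. HB-EGF is shed from the cell surface and activates the EGF receptor, a pair known to drive MG into division after injury. FGFs act through tyrosine kinase receptors with heparan sulfate as a partner, and FGF2 is known to protect photoreceptors. VEGF-A is released by MG and acts on vessels through KDR (VEGFR2). Pleiotrophin (PTN) is a heparin-binding factor that acts through the phosphatase PTPRZ1, syndecans and ALK. CNTF acts through CNTFR, LIFR and gp130 (*Il6st*) to activate STAT3, and is known as a survival factor for photoreceptors that also activates glia.

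Promoter sequence is shown for the receptor genes *Kdr* and *Egfr*, which were far lower in rods and bipolar cells than in MG, and for *Cntf*, which was called in 2 rankings of MG described below. Each run is the 250 bases before the RefSeq gene start (RefSeq table of GRCm38.p6), read 5′ to 3′ on the strand of the gene, after an exact and unique match to GRCm39. *Kdr* lies at chr5:76139116-76139365 (minus strand), *Egfr* at chr11:16701953-16702202 (plus strand) and *Cntf* at chr19:12742997-12743246 (minus strand), and the last bases of the *Kdr* and *Egfr* windows reach into the first exon of the annotated transcript. Capitals mark a GC box (GGGCGG on either strand) in *Kdr* and *Egfr* and an AP-1 motif (TGANTCA on either strand) in *Cntf*.
Kdr: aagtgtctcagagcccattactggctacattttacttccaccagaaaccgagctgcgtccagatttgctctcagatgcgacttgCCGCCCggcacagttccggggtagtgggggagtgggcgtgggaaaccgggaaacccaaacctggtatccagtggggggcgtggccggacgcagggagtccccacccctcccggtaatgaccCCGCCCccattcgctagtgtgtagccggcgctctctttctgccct
Egfr: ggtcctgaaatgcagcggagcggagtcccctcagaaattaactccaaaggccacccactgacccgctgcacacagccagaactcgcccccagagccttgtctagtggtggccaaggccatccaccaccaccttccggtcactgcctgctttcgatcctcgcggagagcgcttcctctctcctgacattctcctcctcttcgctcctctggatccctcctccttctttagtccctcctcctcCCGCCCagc
Cntf: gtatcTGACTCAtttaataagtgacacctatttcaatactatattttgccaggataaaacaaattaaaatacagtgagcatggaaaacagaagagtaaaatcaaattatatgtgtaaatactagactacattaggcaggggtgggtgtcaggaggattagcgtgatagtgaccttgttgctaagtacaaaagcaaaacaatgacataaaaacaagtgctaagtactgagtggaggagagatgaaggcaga
The GC boxes start at base 85 and base 206 of the *Kdr* window and at base 242 of the *Egfr* window, and the AP-1 motif starts at base 6 of the *Cntf* window. Windows were used for 8 of the 10 genes, 10 windows in all, with 2 each for *Fgfr3* and *Vegfa*. None was used for *Hbegf* or *Fgfr1*. A GC box was in 7 of these 10 windows, against 32.7% of all 32851 promoter windows, an AP-1 motif in 1 (6.75% of all windows), and the TEAD motif GGAATG, searched on both strands because YAP acts through TEAD factors, in 0 (12.6% of all windows). These are matches of letters and describe the windows only.

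MG were cells with at least 1000 unique molecular identifiers (UMIs, each a counted transcript), at most 15% mitochondrial UMIs and at least 0.5% of UMIs in *Glul*, *Rlbp1*, *Slc1a3*, *Clu* and *Aqp4*. There were 1498, 2898, 803 and 1341 MG in library order, 6540 of 15293 cells, with medians of 6194.5, 2918.5, 10778 and 2920 UMIs. A further 7 MG markers outside the gate (*Dkk3*, *Sox9*, *Lhx2*, *Kcnj10*, *Gpr37*, *Dbi*, *Vim*) summed to between 7477 and 8728 CPM (UMIs of a gene per 1e6 UMIs of the summed cells) in these cells, against 832 to 1417 CPM in microglia and 97.5 to 503 CPM in the neurons. No gate for astrocytes was applied. The astrocyte markers *Pax2*, *Gfap* and *S100b* summed to 37.1, 317, 144 and 19.0 CPM in MG in library order. Of these, *Pax2* had 0, 52, 0 and 2 UMIs, and *Gfap* is also in the gliosis list used below. The share of astrocytes among the cells called MG was not tested. The libraries fell into 2 processing batches, each with 1 library of each AAV: the headers name Cell Ranger 8.0.0 for both replicates 1, and 9.0.1 for *mKate2* AAV replicate 2 and *Yap5SA* AAV replicate 3. MG of the 9.0.1 batch also had more UMIs in stress and immediate early genes (27215 and 17789 CPM, against 1961 and 3412 CPM) and in rod markers (762 and 1539 CPM, against 91.0 and 7.69 CPM). Neurons and rods in sums of at least 10 cells were found in the 9.0.1 batch alone. The 2 libraries of that batch list no tdTomato entry, so whether those cells carried the label was not tested.

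In MG, 9 of the 10 genes were well above the counting floor in every library, and *Fgfr3* was near it. Of the receptors, *Kdr* (ENSMUSG00000062960, chr5:76093487-76139118, the main VEGF-A receptor of endothelium) stood at 1307, 691, 1053 and 793 CPM in library order. It had a UMI in 58.6%, 40.5%, 53.1% and 50.3% of MG thinned to 1000 UMIs each, against 0% to 3.28% of microglia thinned to the same depth (median depths before thinning 2918.5 to 10778 and 3937 to 14911 UMIs). The share in MG was above that in microglia in every library. The source of the *Kdr* UMIs in microglia was not tested.

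*Kdr* is best known from endothelium, and the markers of endothelium were close to 0 in these cells. The 6 endothelial markers (*Cldn5*, *Pecam1*, *Cdh5*, *Ly6c1*, *Esam*, *Egfl7*) summed to 4.46, 6.99, 5.82 and 6.13 CPM in MG, with 4, 5, 4 and 4 of the 6 detected and *Cdh5* at 0 UMIs in every library. No MG passed the endothelial gate (0 of 6540), which allows a share of up to 0.0459% by counting error. Gates of other cell types were passed by 5, 65, 1 and 101 MG in library order, and these cells were kept as MG. The rod gate was passed by 5, 29, 0 and 42 of them. Markers of pigment epithelium summed to 3.37, 39.8, 12.8 and 476 CPM in MG in library order.

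*Egfr* (ENSMUSG00000020122, chr11:16702198-16868158), the receptor for HB-EGF and other EGF ligands, had 172, 143, 177 and 139 CPM in MG. The spread between libraries was narrow, at 158 ± 19.7 CPM (SD, n = 4). *Fgfr1* (ENSMUSG00000031565, chr8:26008745-26066824) had 137, 154, 105 and 165 CPM, and *Fgfr2* (ENSMUSG00000030849, chr7:129763471-129868272) 39.1, 65.5, 58.0 and 78.9 CPM. Both are FGF receptors whose groups of libraries overlapped between the AAVs. *Fgfr3* (ENSMUSG00000054252, chr5:33879067-33894412) had 13, 19, 7 and 21 UMIs in all MG of a library, or 1.09, 1.02, 0.727 and 2.68 CPM. At this level no difference between conditions was detectable.

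Among the ligands, *Vegfa* (ENSMUSG00000023951, chr17:46327919-46343309), the ligand of KDR, varied least between libraries, at 189, 211, 201 and 206 CPM (202 ± 9.64, SD, n = 4). *Ptn* (ENSMUSG00000029838, chr6:36691421-36787593) had 1272, 580, 626 and 1097 CPM. *Cntf* (ENSMUSG00000079415, chr19:12737353-12742996) had 68.4, 56.6, 75.8 and 44.4 CPM, and *Fgf2* (ENSMUSG00000037225, chr3:37402495-37464257) 50.2, 80.6, 36.05 and 60.0 CPM. Both AAV groups held a high and a low library for *Ptn* and *Cntf*. Among all members, the processing batches overlapped for *Ptn* and *Fgfr3* and did not overlap for the others. *Egfr*, *Kdr* and *Cntf* were higher in each library of the 8.0.0 batch. *Fgf2*, *Fgfr1*, *Fgfr2*, *Vegfa* and *Hbegf* were higher in each library of the 9.0.1 batch. The share of all genes that split by batch in this way was not computed, so the split may not be particular to these genes. Its cause was not tested.

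*Hbegf* (ENSMUSG00000024486) varied most, at 23.2, 239, 49.6 and 115 CPM in MG. Its libraries stood in the same order as their stress genes, the 9.0.1 batch above the 8.0.0 batch. Read counts of *Fgf2* and *Cntf* are uncertain where they meet other genes on the same strand (*Gm43439* and *Gm44505*), and those of *Egfr*, *Hbegf*, *Fgf2*, *Fgfr1*, *Fgfr3*, *Vegfa* and *Kdr* where a gene lies opposite. Coordinates are those of GENCODE M39 canonical transcripts on GRCm39, the build named by the study, whose own annotation release was 2024-A.

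**Figure D1:**
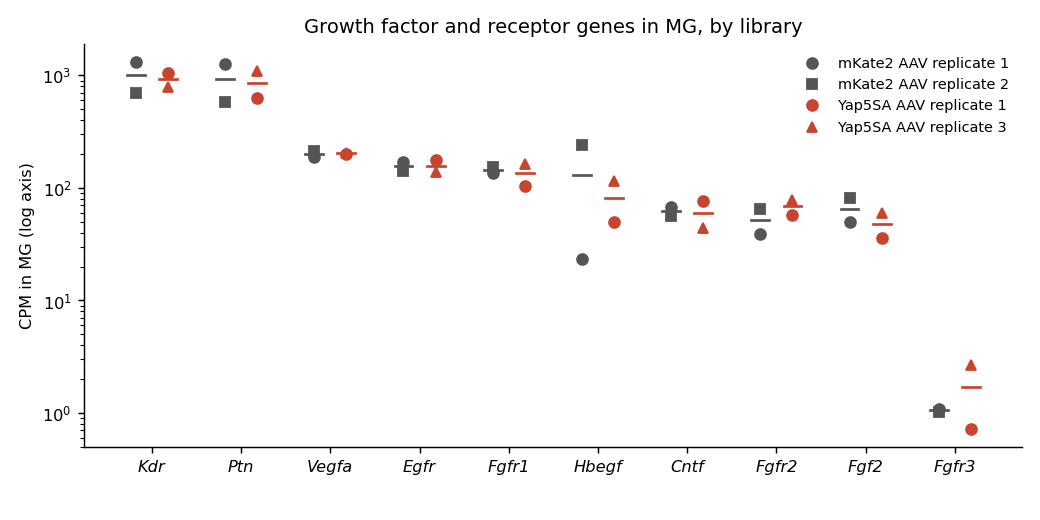
CPM (log axis) of the 10 genes in MG. Grey points are *mKate2* AAV libraries, red points *Yap5SA* AAV libraries, shapes give the replicate number and short lines the mean of 2 libraries. The groups overlap for each gene, and *Hbegf* spans from 23.2 to 239 CPM.

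The first comparison asked whether *Yap5SA* AAV left the growth factor genes of MG at other levels than *mKate2* AAV. No gene passed the test in edgeR's quasi-likelihood fit on UMIs summed per library (0 of 15285 genes tested, 0.00%, at an adjusted p under 0.05), and thus 0 of the 10 members did. At an unadjusted p under 0.05 there were 30 genes, and DESeq2 also called 0, with 52 at an unadjusted p under 0.05. For the members the adjusted p by edgeR was 1.0 in each case. On simulated counts with the spread of these libraries the same fit called none of the genes given a large change, so the absence of calls does not show that levels were alike.

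None of these differences passed the test. *Hbegf* averaged 131 ± 153 CPM with *mKate2* AAV and 82.0 ± 45.9 CPM with *Yap5SA* AAV (SD, n = 2 each), a fitted log2 fold change of -0.86 ± 1.14 (SE). *Fgf2* had -0.57 ± 0.44 (65.4 ± 21.5 against 48.0 ± 16.9 CPM), and *Fgfr2* 0.26 ± 0.40 (52.3 ± 18.6 against 68.4 ± 14.8 CPM). The other members had log2 fold changes between -0.21 and 0.59, each with an SE from 0.25 to 0.87. These intervals leave room for changes well beyond the fitted sizes in either direction.

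Within the batches the directions were split. For *Hbegf* the log2 ratio of *Yap5SA* AAV over *mKate2* AAV was 1.09 in the 8.0.0 batch and -1.06 in the 9.0.1 batch, and for *Ptn* -1.02 and 0.92. *Fgf2* was lower with *Yap5SA* AAV in both batches (log2 ratios of -0.48 and -0.43), and *Fgfr2* was higher in both (0.57 and 0.27). *Fgfr1*, *Kdr*, *Fgfr3*, *Egfr*, *Vegfa* and *Cntf* changed sign between batches. With the batch as a term edgeR again called 0 genes, and *Fgf2* had a log2 fold change of -0.55 and *Fgfr2* of 0.32 (adjusted p = 1.0 for each).

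The share of MG with a UMI, at 1000 UMIs per cell, gave the same picture. For *Kdr* it was 49.6% ± 12.8 with *mKate2* AAV and 51.7% ± 1.92 with *Yap5SA* AAV (SD, n = 2 each, exact permutation test, two-sided, p = 1). For *Ptn* it was 43.3% ± 16.7 and 40.3% ± 11.6 (exact permutation test, p = 1). *Fgf2* had 5.54% ± 0.946 and 4.19% ± 0.293, libraries that did not overlap (exact permutation test, p = 0.333, the smallest p that 2 libraries against 2 allow). No member could pass 0.05 in this test.

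The pathway genes around the members were also tested in MG. Of 50 genes listed as other ligands, receptors and feedback genes of the EGF, FGF, VEGF, PTN and CNTF pathways, 43 were tested and 0 passed, with a median log2 fold change of -0.12 beside -0.03 over all genes tested. Partners of the members were present in every library. *Flt1*, the second VEGF receptor gene, had 751, 544, 500 and 833 CPM in library order, and *Cntfr*, the CNTF receptor subunit, 133, 103, 94.0 and 134 CPM. The PTN receptor gene *Ptprz1* had 54.7, 46.2, 22.9 and 89.9 CPM, and *Sdc4*, a syndecan, 128, 422, 208 and 146 CPM.

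The second comparison set the other cell types of the sort beside MG, in a single edgeR fit over 16 sums with the library as a term. It held microglia of all 4 libraries (23, 882, 122 and 57 cells) and, of *mKate2* AAV replicate 2 and *Yap5SA* AAV replicate 3, rods (547 and 540), cones (33 and 43), bipolar cells (286 and 45) and amacrine cells (144 and 34). *Fgfr3* did not pass the filter on low counts, so 9 members were tested among 16336 genes. Most members were lower outside MG, while *Fgfr2* was called higher in rods, cones and bipolar cells and *Fgf2* in rods.

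**Figure D2:**
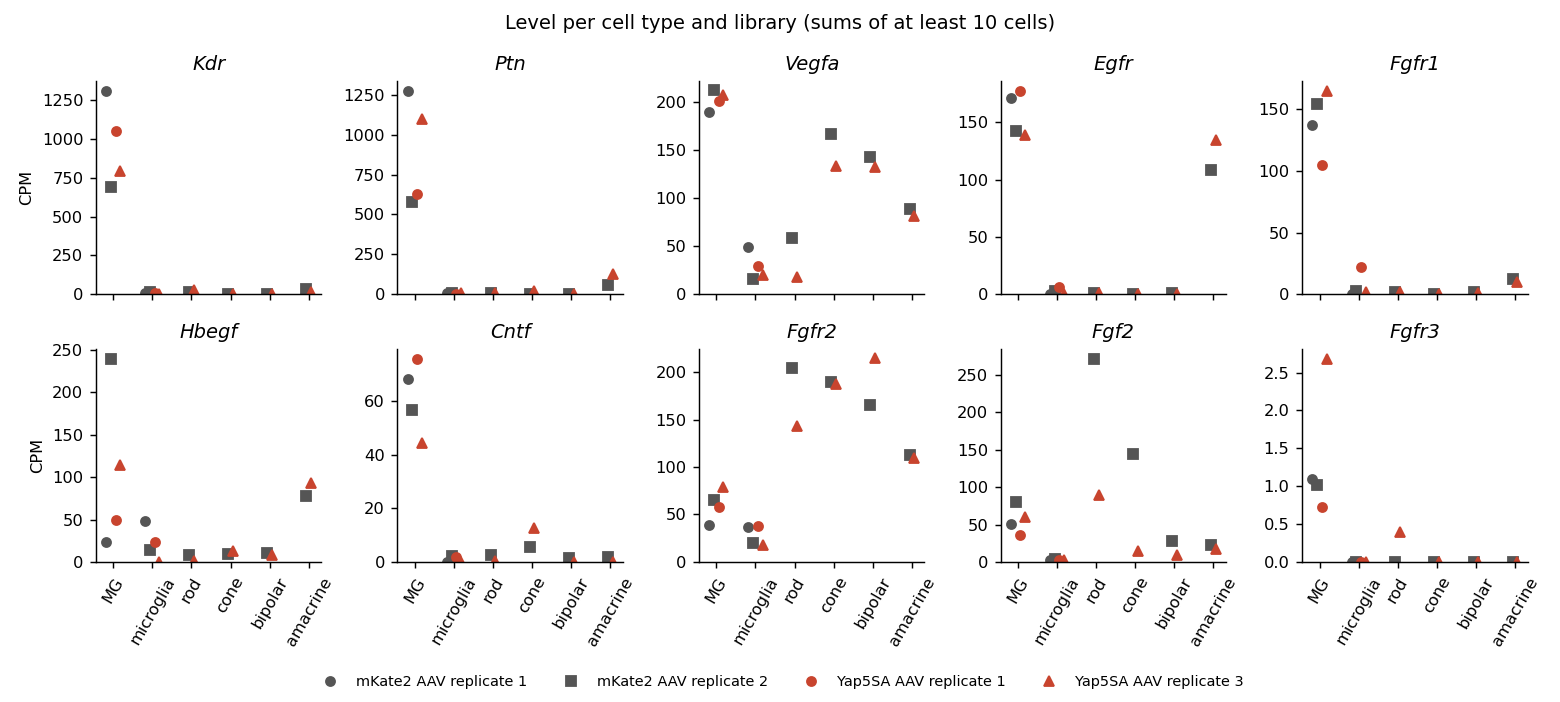
CPM (linear axes from 0, each gene on its own scale) by cell type, 1 point per library and type with at least 10 cells. *Kdr* is at 691 CPM or more in MG and at most 32.9 CPM elsewhere, *Egfr* is near its MG level in amacrine cells, and the *Fgfr2* points of the 4 neuronal types lie above those of MG.

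Microglia, the resident macrophages, had little of the set. *Kdr* was at 8.61, 12.2, 9.88 and 2.26 CPM there and *Ptn* at 5.74, 8.28, 4.65 and 9.04 CPM in library order, and no library of either gene overlapped with its MG. By edgeR, *Kdr* was lower in microglia by a log2 fold change of -6.06 ± 0.43 (adjusted p = 1.48e-08) and *Ptn* by -6.24 ± 0.37 (adjusted p = 2.86e-09), each in 4 of 4 libraries. Of the 9 members tested 8 were lower in microglia and 0 higher, where 30.8% of all genes were called lower, 22.1% higher and 52.9% in either direction.

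*Egfr* (-5.11 ± 0.41, adjusted p = 8.26e-08 by edgeR), *Cntf* (-4.61 ± 0.51), *Fgf2* (-3.97 ± 0.46), *Fgfr1* (-3.96 ± 0.54) and *Vegfa* (-2.59 ± 0.31) were lower in each of the 4 libraries. *Fgfr2* was lower by a log2 fold change of -0.69 ± 0.27 (edgeR, adjusted p = 0.0417). That call ended with DESeq2 (adjusted p = 0.0692), in a fit on the pair of types only (edgeR, adjusted p = 0.146), and without *mKate2* AAV replicate 2 (0.320) or *Yap5SA* AAV replicate 3 (0.327).

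*Hbegf* was the member not called in microglia (-1.67 ± 0.70, adjusted p = 0.0546 by edgeR). It had 48.8, 14.2, 23.8 and 0 CPM in microglia in library order, and in *mKate2* AAV replicate 1 the microglia were above the MG (23.2 CPM). It passed without that library (-2.50, edgeR, adjusted p = 0.00405), without *Yap5SA* AAV replicate 1 (-2.21, 0.0396) or replicate 3 (-1.15, 0.0445), with no library term (-2.07, 0.0289) and with no filter on low counts (-1.79, 3.85e-07). Without *mKate2* AAV replicate 2 its log2 fold change was -0.79 (edgeR, adjusted p = 0.333).

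Rods, the photoreceptors of dim light, shared *Fgf2* and *Fgfr2* and had little of the rest. *Fgf2* was at 272 CPM in rods of *mKate2* AAV replicate 2 and at 89.8 CPM in *Yap5SA* AAV replicate 3, against 80.6 and 60.0 CPM in their MG. The log2 fold change was 1.04 ± 0.40 (edgeR, adjusted p = 0.0410), and 17.9% of all genes were called higher in rods and 47.3% in either direction. The call for *Fgf2* rested on single libraries. It ended without *mKate2* AAV replicate 2 (log2 fold change 0.62, edgeR, adjusted p = 0.460), *Yap5SA* AAV replicate 1 (adjusted p = 0.0515) or *Yap5SA* AAV replicate 3 (adjusted p = 0.0555), and with DESeq2 (adjusted p = 0.157).

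*Fgfr2* was at 204 and 143 CPM in rods against 65.5 and 78.9 CPM in MG of the same libraries. It was higher in rods by 1.36 ± 0.30 on the log2 scale (edgeR, adjusted p = 0.00159), and lost this call without *mKate2* AAV replicate 2 (adjusted p = 0.0822). The other 7 members were lower in rods, where 29.3% of all genes were called lower: *Ptn* by a log2 fold change of -6.77 ± 0.50, *Egfr* by -6.63 ± 0.55, *Fgfr1* by -6.24 ± 0.75 and *Kdr* by -5.38 ± 0.55 in this fit. Their adjusted p by edgeR was at most 4.78e-04, that of *Hbegf*.

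Cones, the photoreceptors of daylight and color, had the fewest cells. *Egfr* and *Fgfr1* had 0 UMIs among 1179751 UMIs of cones. With a floor of 3 counts over both libraries together, the CPM in MG of those libraries was at least 54.6-fold higher for *Egfr* and at least 60.5-fold higher for *Fgfr1*. *Fgfr2* was at 190 and 187 CPM in cones, above MG in both libraries (1.34 ± 0.31, edgeR, adjusted p = 0.00318). The last call ended without *Yap5SA* AAV replicate 3 (adjusted p = 0.183).

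*Fgf2* was at 144 CPM in cones of *mKate2* AAV replicate 2 and at 14.4 CPM in those of *Yap5SA* AAV replicate 3, libraries on either side of their MG, and was not called (-0.48 ± 0.44, edgeR, adjusted p = 0.432). Without the former it was lower in cones (-2.13, edgeR, adjusted p = 0.0319). *Vegfa*, at 166 and 133 CPM in cones, was not called either (-0.58 ± 0.36, edgeR, adjusted p = 0.234), but passed in a fit on the pair of types only (-0.84, edgeR, adjusted p = 0.0390). In all 7 members were called in cones, 6 of them lower (background 21.3%) and *Fgfr2* higher (background 14.6%), where 35.9% of genes were called. Of the lower ones, *Hbegf* and *Cntf* lost the call without *mKate2* AAV replicate 2 (edgeR, adjusted p = 0.0825 and 0.0948).

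Bipolar cells, the interneurons between photoreceptors and ganglion cells, had 8 of the 9 members called, 1 higher and 7 lower. *Fgfr2* was at 165 and 215 CPM against 65.5 and 78.9 CPM in MG (1.49 ± 0.30, edgeR, adjusted p = 9.20e-04). *Vegfa* was at 142 and 133 CPM against 211 and 206 CPM, a difference the shared fit did not call (-0.54 ± 0.35, edgeR, adjusted p = 0.228) and the fit on the pair of types did (-0.78, edgeR, adjusted p = 0.00339). The other 7 members were lower, among them *Kdr* (-8.10 ± 0.67), *Ptn* (-7.48 ± 0.54), *Egfr* (-6.90 ± 0.60) and *Fgf2* (-2.11 ± 0.46).

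In bipolar cells 43.7% of all genes were called, 20.1% higher and 23.6% lower. The higher level of *Fgfr2* was not called without *Yap5SA* AAV replicate 3 (edgeR, adjusted p = 0.0917), and the lower level of *Fgf2* was not called without a library term (adjusted p = 0.0933).

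Amacrine cells, inhibitory interneurons, were the type in which *Egfr* was not called, and *Hbegf* was not called either. *Egfr* was at 108 CPM in *mKate2* AAV replicate 2 and at 134 CPM in *Yap5SA* AAV replicate 3, against 143 and 139 CPM in their MG (-0.38 ± 0.38, edgeR, adjusted p = 0.458). *Hbegf* was at 78.0 and 92.9 CPM against 239 and 115 CPM (-0.65 ± 0.74, edgeR, adjusted p = 0.509), and was called lower in the fit on the pair of types (-1.27, edgeR, adjusted p = 0.00166). That these genes were not called does not show that amacrine cells and MG had equal levels.

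The counts of *Egfr* and *Kdr* in amacrine cells are given here beside those in MG. The source of the *Egfr* UMIs in amacrine cells was not tested. Amacrine cells of *mKate2* AAV replicate 2 held 389 UMIs of *Egfr* and 118 of *Kdr*, while MG of that library held 2650 and 12849. In *Yap5SA* AAV replicate 3 the counts were 94 and 9 in amacrine cells and 1088 and 6211 in MG. Markers of MG outside the gate were at 503 and 389 CPM in amacrine cells.

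In amacrine cells 6 of the 9 members were lower (background 23.1%, with 42.7% called in either direction): *Kdr* by -5.30 ± 0.56, *Cntf* by -5.55 ± 0.72, *Fgfr1* by -3.70 ± 0.65, *Ptn* by -3.55 ± 0.43, *Fgf2* by -2.18 ± 0.48 and *Vegfa* by -1.33 ± 0.37 on the log2 scale. *Fgfr2*, at 113 and 110 CPM, was above MG in both libraries and did not pass (0.65 ± 0.31, edgeR, adjusted p = 0.105). The calls of *Fgf2* and *Vegfa* ended without *mKate2* AAV replicate 2 (edgeR, adjusted p = 0.0509 and 0.0930), that of *Vegfa* also without *Yap5SA* AAV replicate 3 (0.102), and that of *Fgf2* without a library term (0.0787).

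By cell type, then, the order of *Fgfr2* ran from microglia (28.3 ± 10.7 CPM, SD, n = 4) through MG (60.4 ± 16.6, n = 4) to amacrine cells, rods, cones and bipolar cells, with the last 3 overlapping between libraries. The order of *Vegfa* ran from microglia and rods, which overlapped, through amacrine cells and then bipolar cells and cones, which overlapped, to MG. *Cntf* had at most 12.8 CPM, in cones of *Yap5SA* AAV replicate 3, outside MG. Fewer transcripts of a gene per cell and a different total of transcripts per cell cannot be told apart in CPM.

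Pathway partners were counted in the same fit. Of 45 pathway genes tested, 8 were higher and 21 lower in microglia, 4 and 30 in rods and 4 and 25 in cones. In bipolar cells the counts were 7 and 24, and in amacrine cells 7 and 21. Of all genes, 14.6% (cones) to 22.1% (microglia) were called higher and 21.3% (cones) to 30.8% (microglia) lower. The share of pathway genes called higher was below that of all genes in each type. Median log2 fold changes ran from -3.32 in rods to -1.05 in microglia, beside -0.28 and -0.31 over all genes tested there. *Flt1*, the VEGF receptor gene beside *Kdr*, was lower than in MG in each type, by -4.04 ± 0.46 in microglia to -8.26 ± 0.80 in bipolar cells on the log2 scale (edgeR, adjusted p at most 5.19e-06).

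The CNTF receptor subunit *Cntfr* was also lower in each type, by -5.76 ± 0.47 in rods and -1.46 ± 0.37 in amacrine cells. *Mdk*, the ligand gene of midkine, which is related to PTN, was at 151, 138, 183 and 113 CPM in MG in library order and lower by -4.06 ± 0.40 in microglia, -5.26 ± 0.54 in rods, -5.29 ± 0.57 in bipolar cells, -5.65 ± 0.60 in amacrine cells and -7.58 ± 0.86 in cones. *Spry2*, a feedback inhibitor of FGF and EGF signaling, was at 138, 274, 150 and 279 CPM in MG and lower in microglia by -6.19 ± 0.40, and the FGF target *Etv1* was lower in bipolar cells by -5.15 ± 0.58.

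*Erbb2*, the partner receptor of EGFR, had 13.5, 4.03, 7.58 and 6.00 CPM in MG and 0 UMIs in each sum of the 5 other types. The ligand genes *Lif* and *Pgf* had 0 UMIs in bipolar cells and cones, and *Spry4* had 0 UMIs in microglia, beside 20.8 CPM or less for *Lif*, 27.3 CPM or less for *Pgf* and 18 CPM or less for *Spry4* in MG.

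Several other receptors of these factors were higher outside MG. *Erbb4*, a neuregulin receptor related to *Egfr*, was higher in bipolar cells (7.43 ± 0.65), and *Fgfr4* was at 29.0 and 14.3 CPM in amacrine cells and at most 0.323 CPM in MG. *Ptprz1*, the PTN receptor, was at 750 and 1004 CPM in bipolar cells, against 46.2 and 89.9 CPM in MG (3.36 ± 0.64, edgeR, adjusted p = 5.40e-04), and *Alk*, another PTN receptor, was at 399 and 431 CPM in amacrine cells (6.13 ± 0.36) and at 188 and 174 CPM in cones (4.86 ± 0.34). *Nrp2*, a coreceptor of VEGFs, was higher in microglia (5.02 ± 0.36) and amacrine cells (4.56 ± 0.40), and the syndecan *Sdc3* (4.77 ± 0.36) and *Osm*, a cytokine of the CNTF family (10.1 ± 0.66), were higher in microglia. Some of these genes were not limited to the types named. By mean CPM over libraries, *Nrp2* was at 86.3 in bipolar cells (2.76 in MG) and *Erbb4* at 157 in amacrine cells (4.01 in MG). *Sdc3* was at 32.0 in rods, 31.3 in bipolar cells and 21.5 in amacrine cells (3.08 in MG).

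MG also varied among themselves, and a final comparison asked which members moved with measured states of the cell. MG with at least 2000 UMIs were ranked within each library by the share of their UMIs in 12 gliosis genes (such as *Gfap*, *Lcn2*, *Serpina3n* and *Cd44*), in 17 stress and immediate early genes, or in 79 ribosomal protein genes, and the upper tertile was tested against the lower with the library as a term. No member is in these lists. The tertiles hold 396, 676, 236 and 310 cells each in library order, and the 3 rankings use the same cells.

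Gliosis is the reactive state of glia, and 3 of the 9 members tested rose with the share of its genes: *Cntf*, *Fgf2* and *Hbegf*. In the lower tertile 157, 139, 32 and 185 cells in library order had no UMI of these genes. The upper tertile began at 0.0959%, 0.280%, 0.175% and 0.0976% of UMIs. *Gfap* went from 52.9 to 461 CPM in *mKate2* AAV replicate 2 and from 1.53 to 9.63 CPM in *Yap5SA* AAV replicate 3. Whether cells of the upper tertile were reactive was not tested. *Cntf* went from 34.5 to 105 CPM in *mKate2* AAV replicate 1, from 32.3 to 73.2 in *mKate2* AAV replicate 2, from 48.2 to 106 in *Yap5SA* AAV replicate 1 and from 29.6 to 64.8 in *Yap5SA* AAV replicate 3. The ranges of the tertiles did not overlap. Its log2 fold change was 1.31 ± 0.11 (edgeR, adjusted p = 5.01e-04), where 4.16% of the 12704 genes tested were called higher and 5.07% in either direction.

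The rise of *Cntf* passed in each of the 8 alternatives run, with adjusted p from 7.70e-17 to 0.00533 and log2 fold changes from 0.97, with every cell thinned to 2000 UMIs, to 1.36. The upper tertile had more UMIs per cell than the lower in each library (medians of 8758 against 7008, 4390 against 3546, 15760 against 8896 and 4596 against 3546 in library order). Stress moved with this ranking too, and the immediate early gene *Fos* went from 34.8 to 548, from 4604 to 8539, from 204 to 1247 and from 1798 to 7611 CPM in library order. The median mitochondrial share went from 7.89% to 5.48% in *mKate2* AAV replicate 2 and from 6.00% to 4.76% in *Yap5SA* AAV replicate 3. The part of stress and mitochondrial share in the rise of the members was not tested.

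*Fgf2* went from 26.7 to 72.4, from 49.6 to 106, from 30.3 to 44.2 and from 51.6 to 63.1 CPM in library order (0.92 ± 0.17, edgeR, adjusted p = 0.0145), higher in 4 of 4 libraries. The call ended without *mKate2* AAV replicate 2 (edgeR, adjusted p = 0.0678). *Hbegf* went from 20.5 to 22.6, from 67.2 to 419, from 27.1 to 55.1 and from 69.0 to 227 CPM (1.62 ± 0.33, edgeR, adjusted p = 0.0244). For *Hbegf* the tertiles overlapped between libraries, and the rise was large in the 9.0.1 batch. It was not called by DESeq2 (adjusted p = 0.0880), nor by edgeR without *mKate2* AAV replicate 2 (0.0502), *Yap5SA* AAV replicate 1 (0.0771) or *Yap5SA* AAV replicate 3 (0.0850).

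The other 6 members did not pass. *Vegfa* (0.53 ± 0.13, edgeR, adjusted p = 0.0575) and *Fgfr1* (0.62 ± 0.17, adjusted p = 0.0665) were higher in the upper tertile of 4 of 4 libraries, and both passed with DESeq2 (adjusted p = 0.0270 and 0.0334), with every cell thinned to 2000 UMIs (edgeR, 9.46e-04 and 0.0126), with no filter on low counts (edgeR, 9.36e-05 and 1.02e-05) and without *mKate2* AAV replicate 1 (edgeR, 0.0332 and 0.0431). *Kdr* (-0.21 ± 0.10, edgeR, adjusted p = 0.265) and *Ptn* (-0.40 ± 0.14, adjusted p = 0.142) were lower in 4 of 4 libraries, and *Ptn* was called lower with no filter on low counts (-0.38, edgeR, adjusted p = 0.0125). *Egfr* and *Fgfr2* had log2 fold changes of 0.09 and 0.20. The median of the 9 members was 0.53, beside -0.02 over all genes tested.

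Of the pathway genes 9 rose and 1 fell among 36 tested, with a median log2 fold change of 0.32. Of all genes, 4.16% were called higher and 0.905% lower. The pathway genes that rose included *Socs3* and *Stat3*, a feedback gene and the transcription factor of CNTF signaling (2.48 ± 0.47 and 1.00 ± 0.18, edgeR, adjusted p = 0.0160 and 0.0125). For EGF signaling the ligand *Tgfa* (1.12 ± 0.25), the receptor *Erbb4* (1.90 ± 0.44) and, named after its value was seen, the feedback gene *Errfi1* (0.74 ± 0.10) rose, and for FGF signaling the feedback genes *Dusp6* (1.07 ± 0.16) and *Spry1* (0.98 ± 0.21). The VEGF family ligand *Pgf* rose by 1.74 ± 0.26 and the syndecan *Sdc4* by 0.92 ± 0.14, while the PTN receptor *Ptprz1* fell by 0.92 on the log2 scale (SE 0.15, edgeR, adjusted p = 0.00767).

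**Figure D3:**
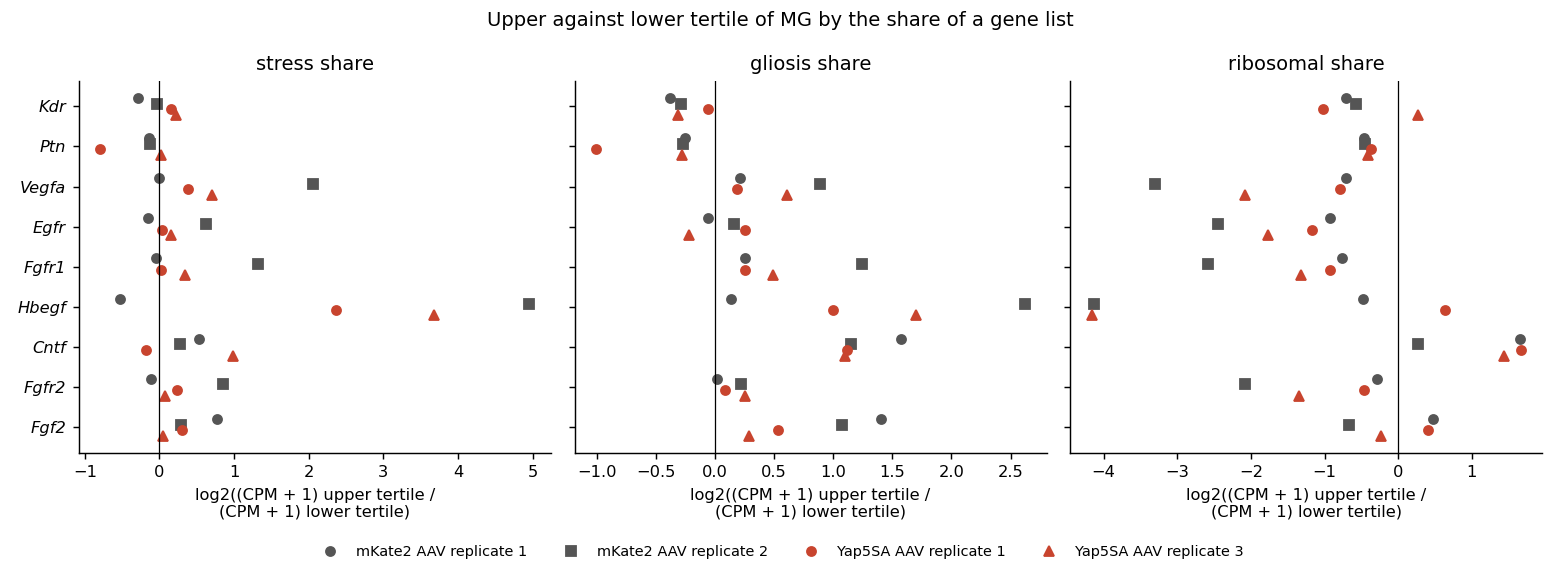
Log2 ratio of CPM + 1 in the upper over the lower tertile of MG, ranked within a library by the share of stress, gliosis or ribosomal protein UMIs (panels, each with its own horizontal axis). Each point is a library. *Cntf* is to the right of 0 in 4 of 4 libraries for gliosis and for ribosomal share, and *Hbegf* reaches 415 CPM in the upper stress tertile of *mKate2* AAV replicate 2 from 12.4 CPM in the lower.

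In the ranking by stress genes *Hbegf* was higher in the upper tertile of 3 of 4 libraries and did not pass the test. *Hbegf* is itself a gene that cells switch on quickly. It went from 28.7 to 19.6 CPM in *mKate2* AAV replicate 1, from 12.4 to 415 in *mKate2* AAV replicate 2, from 17.4 to 94.2 in *Yap5SA* AAV replicate 1 and from 17.0 to 229 in *Yap5SA* AAV replicate 3. The log2 fold change was 2.74 ± 0.83 (edgeR, adjusted p = 0.238). The upper stress tertile was deeper, with medians of 8828, 6114, 15497 and 4880 UMIs against 6971, 3353, 8117 and 4036, and in *mKate2* AAV replicate 2 it had a median mitochondrial share of 3.55% against 9.25%.

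It was *mKate2* AAV replicate 1 that stood apart, and without that library *Hbegf* passed (3.77, edgeR, adjusted p = 0.00821), as it did with every cell thinned to 2000 UMIs (2.27, adjusted p = 8.77e-04) and with no filter on low counts (2.77, adjusted p = 0.00589). In the ranking by stress 0 of 9 members were called by edgeR and 0 by DESeq2, where edgeR called 0.522% of 12649 genes (0.498% higher, 0.0237% lower), and 1614 genes had an unadjusted p under 0.05. *Vegfa* (0.75 ± 0.29, adjusted p = 0.347 by edgeR) went from 76.6 to 321 CPM in *mKate2* AAV replicate 2 and from 193 to 192 CPM in *mKate2* AAV replicate 1. Of 37 pathway genes *Socs3* alone rose (4.11 ± 0.49, edgeR, adjusted p = 0.0146), and 0 fell.

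Ribosomal protein genes gave the third ranking, and it split the members by sign. *Cntf* rose with the ribosomal share, from 36.9 to 118, from 42.8 to 51.9, from 36.8 to 119 and from 27.4 to 76.4 CPM in library order (1.67 ± 0.23, edgeR, adjusted p = 0.00493), and passed in each of the 8 alternatives with adjusted p from 1.34e-07 to 0.0409. *Egfr* fell, from 214 to 112, from 204 to 36.8, from 244 to 108 and from 184 to 53.6 CPM (-1.19 ± 0.23, edgeR, adjusted p = 0.0126). In these libraries the tertiles of *Egfr* did not overlap.

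*Fgfr1* (-1.01 ± 0.27, edgeR, adjusted p = 0.0311) and *Vegfa* (-1.32 ± 0.39, adjusted p = 0.0430) also fell, in 4 of 4 libraries. The counts were 1 member higher and 3 lower, where 18.5% of 12031 genes were called higher, 10.1% lower and 28.7% in either direction. DESeq2 called 4 members lower, with *Hbegf* added (-1.73, adjusted p = 0.0383), and edgeR called 5 lower with every cell thinned to 2000 UMIs, with *Hbegf* (-1.47, adjusted p = 0.0210) and *Fgfr2* (-0.84, adjusted p = 0.0300) added. Without *Yap5SA* AAV replicate 3 *Cntf* was the single member called (edgeR, adjusted p = 0.0702 for *Egfr*, 0.109 for *Fgfr1* and 0.159 for *Vegfa*), without *mKate2* AAV replicate 2 the calls of *Fgfr1* (0.0578) and *Vegfa* (0.0814) ended, and without *Yap5SA* AAV replicate 1 that of *Fgfr1* (0.0538).

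Depth and mitochondrial share moved with this ranking. The upper ribosomal tertile had medians of 4665, 3257, 8195 and 2985 UMIs and the lower 7982, 7844, 9774 and 11501, and the mitochondrial share was 10.2% against 2.84% in *mKate2* AAV replicate 2 and 8.03% against 1.15% in *Yap5SA* AAV replicate 3. The part of these measures in the result was not tested beyond thinning, where with every cell at 2000 UMIs the fall of *Egfr* was -1.22 on the log2 scale and the rise of *Cntf* 1.34. Of 33 pathway genes 2 rose, among them *Vegfb* by 1.67 ± 0.25, and 7 fell, among them *Lrig1* (-1.29 ± 0.31), *Ptprz1* (-1.24 ± 0.20), *Nrp1* (-1.14 ± 0.31) and *Flt1* (-0.87 ± 0.23). Of all genes, 18.5% were called higher, 10.1% lower and 28.7% in either direction, the last near the share of pathway genes called.

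The level of several members also went with the number of UMIs of an MG cell, given here as values with no test. In *mKate2* AAV replicate 2 *Hbegf* had 26.9 CPM in MG from 1000 to below 2000 UMIs, 19.8 from 2000 to below 5000, 27.4 from 5000 to below 10000 and 402 at 10000 or more. In *Yap5SA* AAV replicate 3 the same levels were 8.29, 11.7, 16.6 and 202 CPM. In the 8.0.0 batch the levels were 4.48, 14.5, 25.1 and 24.9 CPM in *mKate2* AAV replicate 1 and 0, 21.3, 23.3 and 55.7 CPM in *Yap5SA* AAV replicate 1. The deepest class was thus the highest in 3 of 4 libraries, and in the 9.0.1 batch it held 363 and 167 MG with 43403 and 29568 CPM of stress genes.

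*Egfr* went from 57.2 to 207 CPM and from 66.6 to 198 CPM between the last 2 depth classes of those libraries, while in the 8.0.0 batch it had 174 and 201 CPM already from 5000 to below 10000 UMIs and 185 and 179 CPM above. *Vegfa* and *Fgfr1* had the same shape in the 9.0.1 batch. *Cntf* went the other way there, from 89.2 to 43.2 CPM and from 83.2 to 20.0 CPM. *Kdr* in the deepest MG was at 1340, 679, 1088 and 767 CPM in library order. Doublets were not called in these data, and their part in the deepest cells was not tested.

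**Figure D4:**
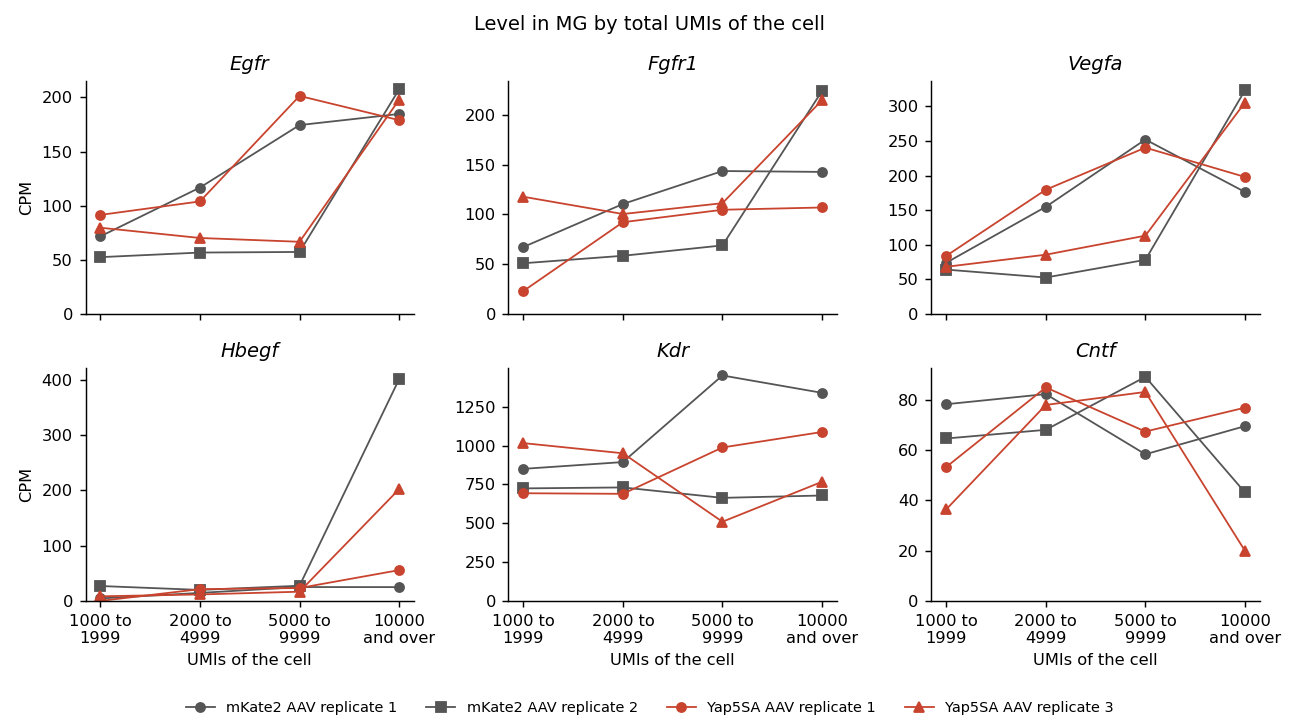
CPM (linear axes from 0) of 6 members in MG by the total UMIs of the cell, 1 line per library. In *mKate2* AAV replicate 2 and *Yap5SA* AAV replicate 3, *Hbegf* reaches 402 and 202 CPM in cells of 10000 UMIs or more, and *Kdr* lies between 510 and 1452 CPM in every class of every library.

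Over the 16 sums per library and cell type, each member was set beside all 13959 genes with at least 200 UMIs, by Pearson's r of log2(CPM + 1). These values describe likeness across cell types, and sums of a library share their depth. *Egfr* was most like *Antxr1* (r = 0.992) and *Luzp2* (0.987), *Ptn* most like *Dipk1c* (0.984) and *Lypd6* (0.982), *Kdr* most like *Espn* (0.978) and *Csrp2* (0.968), and *Fgfr1* most like *Ntn4* (0.975) and *Sntb1* (0.974). *Fgfr2* was nearest to *Mapk8* (0.966) and *Prickle1* (0.965), *Cntf* to *Utp14b* (0.959) and *Rrh* (0.955), *Fgf2* to *2810032G03Rik* (0.944) and *Pmpcb* (0.938), *Vegfa* to *Dennd2a* (0.943) and *Hmgn3* (0.925), and *Hbegf* to *Fjx1* (0.853) and *Ier5l* (0.853).

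Among the members themselves the receptor *Kdr* and the ligand *Ptn* followed each other (r = 0.919), as did *Fgfr1* with *Kdr* (0.911), *Egfr* with *Ptn* (0.906) and *Egfr* with *Fgfr1* (0.905). *Fgfr2* had its highest r with *Fgf2* (0.614) and was at -0.31 with *Fgfr1*. *Hbegf* and its receptor *Egfr* had an r of 0.733, and *Vegfa* and its receptor *Kdr* 0.424. *Fgfr3*, with 61 UMIs in the sums, was below the minimum.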

How the data were processed

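Single cells were profiled with the 10x Genomics 3′ assay. The authors state alignment to GRCm39 (reference 2024-A). They deposited UMI counts per gene and cell as Cell Ranger wrote them, with version 8.0.0 named in the labels and 9.0.1 in the headers of 2 libraries. Those 2 libraries lack the tdTomato entry that the others list, so whether all were aligned to the same reference is not known. Of MG, 45.1% in *mKate2* AAV replicate 1 and 65.1% in *Yap5SA* AAV replicate 1 had a tdTomato UMI. The counts were not normalised. The members and lists were chosen with earlier results of these data known, and the gates of the other cell types (0.2% to 1% of UMIs in the markers of a type) were set after the shares of markers had been seen. UMIs were summed per library and cell type in sums of at least 10 cells and given as CPM of all UMIs of the sum. Sums were tested with edgeR 4.0.16 (TMM, filterByExpr, quasi-likelihood test) in R 4.3.3, with Benjamini-Hochberg adjustment over all genes tested and a threshold of 0.05. Some fits were run on simulated counts with the spread of the data and 200 genes changed 4-fold. The fit between AAVs called 0% of the changed genes, the fit of microglia 63% and that of the stress tertiles 90.5%. Unchanged genes called were 2, 5 and 19 in the same order. The gliosis and ribosomal tertiles had no such run. DESeq2 1.42.0, other gates, depths and filters, and leaving out each library were alternatives. Shares were compared after thinning to 1000 UMIs per cell. Exact 95% intervals and the floor of 3 counts cover counting error only. Pathway genes named were those called with the 2 largest fold changes of a pathway, plus textbook partners of the members, and some of these are not reported here. No doublet caller was run. Libraries held 13132765 to 50938304 UMIs. Replicate numbers mark no shared animal or day in the labels.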

Additional observations from a re-analysis of the deposited data

Results flagged for a closer look

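*Kdr* was flagged in the ranking of MG by stress genes because the libraries of the AAVs went in opposite directions. The mean log2 ratio of the upper over the lower tertile was -0.16 in *mKate2* AAV, with both libraries below 0, and 0.19 in *Yap5SA* AAV, with both libraries above 0. This difference was not tested.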

How the results depend on the processing

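Of the calls of members, 76 of 80 recomputed values kept their call in microglia, 85 of 90 in rods, 78 of 80 in bipolar cells, 67 of 70 in cones, 56 of 60 in amacrine cells, 19 of 24 for gliosis and 26 of 32 for ribosomal share, and 0 reversed. The cause of the changes below was not tested. Between AAVs, signs turned with 5 libraries and the replicate block for *Egfr* (0.049), *Fgfr3* (-1.001), *Kdr* (0.0097) and *Cntf* (0.16), and with the MG gate at 1% for *Vegfa* (0.015). The replicate block called 0 genes by edgeR (855 at an unadjusted p under 0.05). The replicate numbers do not pair the samples, since the groups share number 1 only once *Yap5SA* AAV replicate 2 is left out. Leaving out each replicate gave log2 fold changes from -0.25 to 0.061 for *Egfr*, -1.74 to 1.85 for *Hbegf*, -0.60 to 0.094 for *Fgfr1*, -0.13 to 0.83 for *Fgfr2*, -0.65 to 1.26 for *Fgfr3*, -0.26 to 0.13 for *Vegfa*, -0.49 to 0.21 for *Kdr*, -0.65 to 0.38 for *Ptn* and -0.56 to 0.17 for *Cntf*. It gave -1.30 to 0.23 for *Hbegf* in amacrine cells, -2.13 to 0.25 for *Fgf2* in cones (0.23 with no library term), -0.38 to 0.044 for *Kdr* and -0.19 to 0.048 for *Ptn* with ribosomal share, and -0.090 to 0.10 for *Kdr* with stress share. *Kdr* with stress share was 0.058 with cells thinned to 2000 UMIs, 0.032 with MG of at least 1000 UMIs and 0.0082 with no filter.

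Shares of MG with a UMI changed the sign of the difference (percentage points, *Yap5SA* AAV minus *mKate2* AAV) for *Hbegf* (-0.616), *Vegfa* (-0.233) and *Cntf* (1.52) when thinned to 2000 UMIs, for *Fgf2* (0.622), *Ptn* (1.63) and *Cntf* (3.85) when not thinned, and for *Fgfr1* (-0.217) and *Cntf* (1.05) with the gate at 1%.

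Counts of genes called moved for gliosis from 644 to 417 when thinned and 1539 with no filter, with 5 and 6 members, and from 333 to 666 genes and 1 to 5 members without a replicate. For stress they moved from 66 to 277 with DESeq2, 133 when thinned and 705 with no filter, the last 2 with 1 member each, and from 21 to 323 genes and 0 to 1 members without a replicate. Without a replicate the counts were 892 to 2769 genes and 1 to 4 members for ribosomal share, 3196 to 7111 genes in amacrine cells, 3003 to 7260 in bipolar cells, 3016 to 5896 in cones and 4053 to 7855 in rods, where a lone sum of a type is assumed to vary like the others. Depth limited *Fgfr3*, with 61 UMIs.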
